A study of Mus musculus with 2 samples.

Results

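The genes described here are 10 members of the NF-κB pathway, chosen by gene name from the 54532 genes of the deposited table. They are the subunit genes Nfkb1, Nfkb2, Rela and Relb, the inhibitor genes Nfkbia and Nfkbie, and the target or feedback genes Tnfaip3, Birc3, Traf1 and Tnfaip2. Each name matched 1 row. RNA was sequenced from CT26, a mouse colon carcinoma cell line, in 2 cultures. The cells of the Oct4 and SOX2 culture had received lentivirus for mouse Oct4 and human SOX2. The control cells had received lentivirus with the empty expression vector, and their genotype is given as wild type. Cells were grown for 4 days in RPMI medium with serum, and the series describes the Oct4 and SOX2 cells as de-differentiated. Each group held 1 library, so every difference below is between these 2 libraries and has no replicate check. Whether the transduced cells were a pool or a clone is not given in the sources used here.

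NF-κB is a family of dimeric transcription factors. In resting cells the dimers are held in the cytoplasm by IκB proteins. Signals from TNF, interleukin-1 or Toll-like receptors activate the IκB kinase complex, IκB is destroyed and the dimers enter the nucleus. This canonical route uses mainly the proteins made from Rela and Nfkb1. A slower, noncanonical route runs through NF-κB-inducing kinase and processes the Nfkb2 product, which then pairs with RelB. Several target genes of the pathway encode its own brakes, among them Nfkbia, Nfkbie and Tnfaip3, so that their transcripts are often read as a record of pathway activity in carcinoma cells.

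NF-κB dimers bind short DNA sites, called κB sites, near the genes they switch on. Letters that match such a site before the members' transcript starts are shown first, for the 5 genes that had them, since the feedback genes are defined by this kind of control. RefSeq promoter windows on GRCm38.p6 ran from 250 bases before to 50 bases after a transcript start. They were found for 8 of the 10 genes, all but Nfkb1 and Relb, in 11 windows. They come from the C57BL/6J reference assembly and were not read from CT26, a line of BALB/c origin. The NF-κB consensus of 10 bases, searched on both strands, was in 7 of these 11 windows, or in 5 of the 8 genes. Rela, Birc3 and Traf1 had windows without it. Of all 32851 windows, 8.46% held it, and no share by gene was taken. Overlapping windows of Nfkb2 counted the same GGGACTTTCC more than once, so the windows are not independent. Capitals mark a match to this consensus or to GGAATTTCC, a shorter form of the site that partly overlaps it and that 0.317% of all windows hold. Where the 150 bases before the RefSeq start lie wholly or partly in an exon of another annotated transcript, only 30 bases are shown. This holds for all 150 bases of Nfkb2 and of Tnfaip2, and for 13 bases of Tnfaip3. Each sequence is given 5′ to 3′ on the strand of its gene.
Nfkb2, chr19:46304694-46304723, plus strand: tcacGGGAATTCCCCccctcggggggccga
Nfkbia, chr12:55492648-55492797, minus strand: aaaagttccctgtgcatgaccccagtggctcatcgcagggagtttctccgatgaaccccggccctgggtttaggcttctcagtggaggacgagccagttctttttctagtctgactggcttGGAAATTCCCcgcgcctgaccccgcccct
Nfkbie, chr17:45555550-45555699, plus strand: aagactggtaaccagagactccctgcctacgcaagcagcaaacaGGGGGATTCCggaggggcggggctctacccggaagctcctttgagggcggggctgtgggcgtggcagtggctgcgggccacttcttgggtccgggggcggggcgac
Tnfaip3, chr10:19015411-19015440, minus strand: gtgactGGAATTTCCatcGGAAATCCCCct
Tnfaip2, chr12:111442631-111442660, plus strand: attttaGGAGGGCCCCtccagggtcgggac

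The Nfkb2 match GGGAATTCCC reads the same on both strands, from 39 to 30 bases before the start (positions -39 to -30). A further match in that window, GGGGCTTTCC from -11 to -2, lies beyond the stretch shown, and other windows of Nfkb2 held matches too. The Tnfaip3 stretch holds a site on each strand, GGAATTTCC from -24 to -16 and GGGGATTTCC from -12 to -3. Other letters were searched on both strands too. The AP-1 heptamer TGANTCA was in windows of Nfkb2, Nfkbie and Tnfaip3 and in 7.81% of all windows. The octamer ATGCAAAT, the classical Oct4 site, was in none of the 11 windows and in 1.74% of all. The SOX heptamer CATTGTT was in the window of Traf1, at -136, and in 3.78% of all windows. These matches describe the letters in these windows and do not show binding.

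The libraries held 31521115 gene-assigned reads with Oct4 and SOX2 and 32262408 in the control, recovered from the deposited values. Values are FPKM, fragments scaled to gene length and to library depth. Pou5f1, the gene for Oct4, had 12406 reads with Oct4 and SOX2 and 0 in the control, at least 4143-fold higher against a floor of 3 reads in the control library (lower 95% counting limit 3369). Mouse Sox2 had 1525 reads with Oct4 and SOX2 and 929 in the control. Since the vector carries human SOX2, that row is no direct check of it. Of 7 epithelial markers, 5 were under 1 FPKM in both libraries, and the E-cadherin gene Cdh1 had 0 reads in both. Of the keratin genes among them, Krt20 was at 28.3 FPKM with Oct4 and SOX2 and 14.9 FPKM in the control, and Krt18 at 11.3 FPKM with Oct4 and SOX2 and 15.2 FPKM in the control. Of 9 leukocyte markers, 7 were under 1 FPKM in both, and the pan-leukocyte gene Ptprc had 2 reads in each library. All 9 summed to 21.1 FPKM with Oct4 and SOX2 and 27.03 FPKM in the control, most of it Cd14. In cultures measured in bulk, fewer cells that express a gene and less RNA per cell cannot be told apart. Whether cultures treated alike would differ by as much as these libraries was not tested.

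Apart from lower Tnfaip2 and a higher but scarce Traf1, the NF-κB genes differed by less than 1.5-fold, in both directions. Nfkb2, Nfkb1, Relb, Nfkbie and Traf1 were higher with Oct4 and SOX2, and Rela, Nfkbia, Tnfaip3 and Tnfaip2 lower. To size the differences, 1 was added to each FPKM and the log2 of the Oct4 and SOX2 value over the control value was taken. This was done for 12401 genes, those that reached 1 FPKM in either library. The members tested were 9 of the 10, since Birc3 stayed under 1 FPKM in both libraries. None of the 9 was 2-fold different, against 2.42% of all genes tested that were 2-fold higher and 1.85% lower, 4.27% in all. At 1.5-fold, 0 were higher, against 6.58% of all genes, and 1 was lower, Tnfaip2, against 6.34% of all genes. In a set of 9 these counts are near the shares of all genes. Their median log2 ratio was 0.19, beside -0.01 over all genes tested, and 5 of the 9 were above 0, beside 48.3% of all genes. Without Traf1, which passed the filter only through its higher library, the median was 0.035 and 4 of 8 were above 0.

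**Figure D1:**
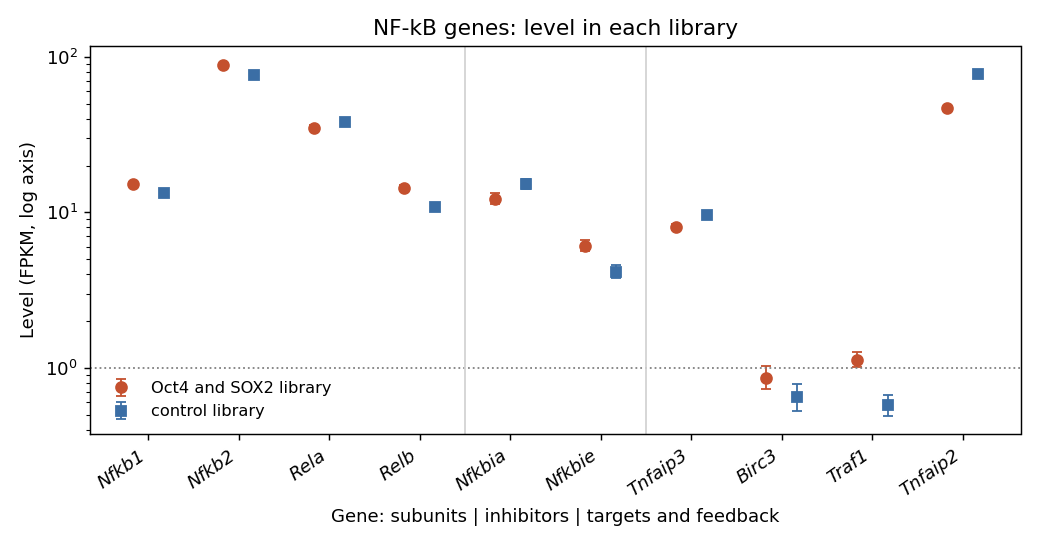
Level of each NF-κB gene in FPKM (log axis) in the Oct4 and SOX2 library (circles) and the control library (squares), 1 library each, with exact 95% counting intervals as bars. The dotted line is 1 FPKM. Nfkb2 and Tnfaip2 sit highest and Birc3 and Traf1 lowest, and Tnfaip2 shows the widest gap among the abundant genes, 46.9 against 78.1 FPKM.

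The subunit genes were all expressed, and Nfkb2 was the most abundant of them in both libraries. Nfkb2 (ENSMUSG00000025225, chromosome 19 from 46304737 to 46312090 on GRCm38, plus strand) encodes p100, the precursor of p52. It was at 88.8 FPKM with Oct4 and SOX2 from 9301 reads, and at 77.0 FPKM in the control from 8079 reads. That is 1.15-fold higher (95% counting interval 1.12 to 1.19). Its partner in the noncanonical dimer, Relb (ENSMUSG00000002983, chromosome 7 from 19606217 to 19629438, minus strand), was at 14.4 FPKM with Oct4 and SOX2 and 10.8 FPKM in the control, from 1782 and 1339 reads. Relb was 1.33-fold higher (1.24 to 1.43), the widest of the differences among the 4 subunit genes.

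The genes of the canonical dimer lay on opposite sides of the control. Nfkb1 (ENSMUSG00000028163, chromosome 3 from 135584655 to 135691547, minus strand) encodes p105, the precursor of p50. It was at 15.3 FPKM with Oct4 and SOX2 and 13.3 FPKM in the control, from 5873 and 5120 reads, 1.15-fold higher (1.11 to 1.19). Rela (ENSMUSG00000024927, chromosome 19 from 5637483 to 5648130, plus strand) encodes p65, the main transactivating subunit. Rela was at 35.1 FPKM with Oct4 and SOX2 and 38.2 FPKM in the control, from 3038 and 3309 reads, 1.09-fold lower (1.03 to 1.14). The level of Rela relative to Relb was 2.44 with Oct4 and SOX2 (counting interval 2.30 to 2.59) and 3.53 in the control (3.32 to 3.77), and these intervals did not overlap. Nfkb2 relative to Relb was 6.17 with Oct4 and SOX2 (5.86 to 6.49) and 7.13 in the control (6.73 to 7.56), again without overlap. Such intervals cover counting error only, and how often other pairs of genes differ by as much was not tested. Nfkb2 relative to Nfkb1 was nearly equal in the libraries, 5.81 with Oct4 and SOX2 (5.62 to 6.001) and 5.79 in the control (5.59 to 5.99). Of the summed FPKM of the 4 genes, Nfkb2 made up 57.8% with Oct4 and SOX2 and 55.3% in the control. The share of Rela was 22.9% with Oct4 and SOX2 and 27.4% in the control.

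The inhibitor genes differed in opposite directions, Nfkbia lower and Nfkbie higher. Nfkbia (ENSMUSG00000021025, chromosome 12 from 55489410 to 55492647, minus strand) encodes IκBα, the fast-acting feedback inhibitor. Nfkbia was at 12.2 FPKM with Oct4 and SOX2 and 15.3 FPKM in the control, from 627 and 784 reads, 1.25-fold lower (1.12 to 1.39). Nfkbie (ENSMUSG00000023947, chromosome 17 from 45555703 to 45563169, plus strand) encodes IκBε, which also binds Rel dimers and is induced more slowly. It was at 6.11 FPKM with Oct4 and SOX2 and 4.15 FPKM in the control, from 593 and 403 reads. The difference was 1.47-fold higher (1.30 to 1.68), just short of 1.5-fold. On the FPKM + 1 scale its log2 ratio was 0.47. Of all genes tested, 9.52% had a higher ratio. The level of Nfkbia relative to Nfkbie was 2.0 with Oct4 and SOX2 (1.78 to 2.24) and 3.68 in the control (3.26 to 4.16), intervals that did not overlap. Nfkbia relative to Rela was 0.348 with Oct4 and SOX2 (0.319 to 0.380) and 0.400 in the control (0.369 to 0.432), with overlap. Summed, Nfkbia and Nfkbie were at 18.3 FPKM with Oct4 and SOX2 and 19.4 FPKM in the control. This sum leaves out the IκB gene Nfkbib, described below, at 15.3 FPKM with Oct4 and SOX2 and 26.2 FPKM in the control.

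**Figure D2:**
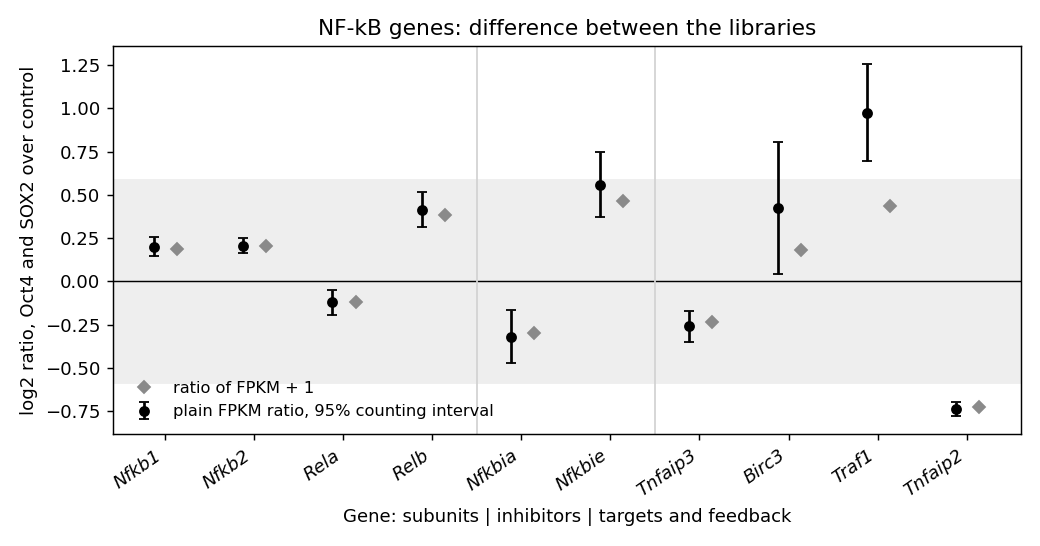
The log2 ratio of each NF-κB gene, Oct4 and SOX2 over control. Circles give the plain FPKM ratio with its exact 95% counting interval, diamonds the ratio of FPKM + 1, and the grey band spans 1.5-fold either way. Tnfaip2 lies below the band on both scales, and Traf1 lies above it as a plain ratio but inside it on the FPKM + 1 scale.

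Tnfaip2 stood furthest from the control of the members tested on the FPKM + 1 scale, while Traf1 was further as a plain ratio. Tnfaip2 (ENSMUSG00000021281, chromosome 12 from 111442469 to 111455018, plus strand) is a TNF-induced gene whose product is known for promoting membrane nanotubes. It was at 46.9 FPKM with Oct4 and SOX2 from 7440 reads, and at 78.1 FPKM in the control from 12422 reads. That is 1.67-fold lower (1.62 to 1.72), where 9.55% of all genes were at least 1.5-fold lower as a plain ratio. Its log2 ratio was -0.72. Of all genes tested, 4.23% had a lower ratio and 8.61% lay further from 0 either way. In the control Tnfaip2 was level with Nfkb2, at 1.01 times its FPKM (0.987 to 1.04), and with Oct4 and SOX2 it was at 0.528 times (0.512 to 0.544). A noncoding gene on the opposite strand, Gm40578, overlaps Tnfaip2 and had 3 reads in each library. Within Nfkb1 lies Gm43430, with 19 reads with Oct4 and SOX2 and 30 in the control, and the end of Nfkb2 overlaps Psd by 4 bases. No other member overlaps a gene of the table.

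Tnfaip3 was also lower, by less. Tnfaip3 (ENSMUSG00000019850, chromosome 10 from 19000910 to 19015657, minus strand) encodes A20, a ubiquitin-editing enzyme that shuts the pathway off. It was at 8.08 FPKM with Oct4 and SOX2 and 9.67 FPKM in the control, from 1860 and 2231 reads, 1.20-fold lower (1.13 to 1.27). Its log2 ratio of -0.23 was close to that of Nfkbia, -0.30. Of the 5 genes with the NF-κB consensus in the sequences printed above, Nfkb2 and Nfkbie were higher with Oct4 and SOX2, and Nfkbia, Tnfaip3 and Tnfaip2 lower.

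Traf1 and Birc3, which act together at TNF receptors, were scarce and higher with Oct4 and SOX2. Traf1 (ENSMUSG00000026875, chromosome 2 from 34941750 to 34961772, minus strand) encodes an adaptor of the TNF receptor family. It had 316 reads or 1.12 FPKM with Oct4 and SOX2, and 161 reads or 0.572 FPKM in the control. The plain difference was 1.97-fold higher (1.62 to 2.39), whereas on the FPKM + 1 scale the log2 ratio was 0.43, inside 1.5-fold. Traf1 passed the filter on low values only through the library where it was higher. Plain ratios of at least 1.5-fold higher were found for 9.95% of all genes tested.

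Birc3 (ENSMUSG00000032000, chromosome 9 from 7848699 to 7873186, minus strand) encodes the ubiquitin ligase cIAP2, an inhibitor of cell death. It had 138 reads or 0.865 FPKM with Oct4 and SOX2, and 103 reads or 0.644 FPKM in the control, 1.34-fold higher (1.03 to 1.75). Its close relative Birc2, for cIAP1 and named after its values were seen, was at 5.79 FPKM with Oct4 and SOX2 and 6.20 FPKM in the control. How reads that match several genes were counted is not given in the sources used here, so the separate values of Birc3 and Birc2 are uncertain.

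Counting error alone was small for most of these genes and larger for the scarce Traf1 and Birc3. The 95% counting interval of the plain fold excluded 1 for all 10, Birc3 included, as it did for 67.3% of all genes tested. At this depth that says little about the treatment, since it leaves out variation between cultures.

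**Figure D3:**
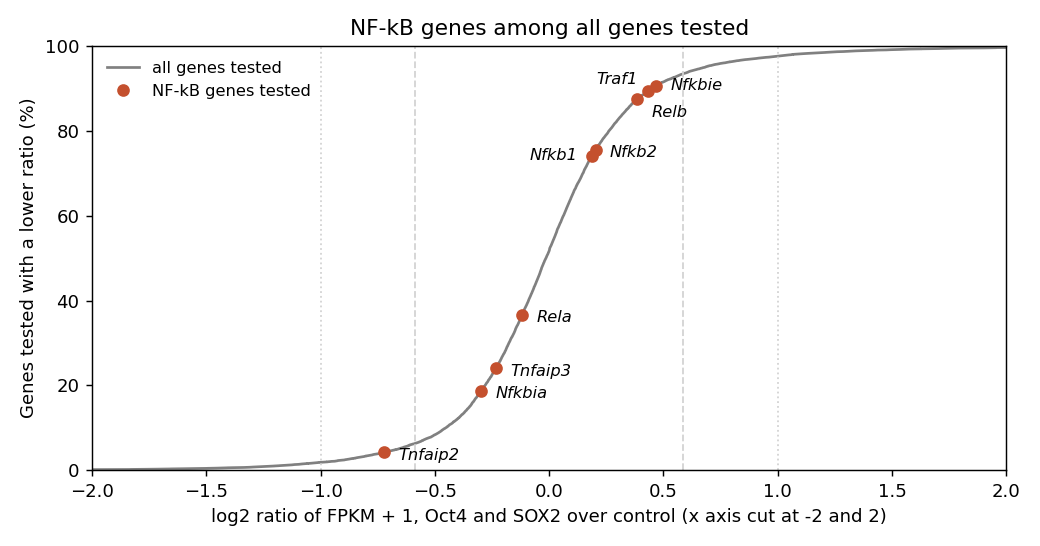
Share of all 12401 genes tested that had a lower log2 ratio of FPKM + 1 (y axis, percent), against that ratio (x axis, Oct4 and SOX2 over control). The grey line is all genes, circles are the 9 NF-κB genes tested, and dashed and dotted lines mark 1.5-fold and 2-fold. Relb, Traf1 and Nfkbie sit between 87.4% and 90.5%, Tnfaip2 at 4.23%, and none passes 2-fold.

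The order of the levels depended on gene length. By deposited FPKM with Oct4 and SOX2, the order from the top was Nfkb2, Tnfaip2, Rela, Nfkb1, Relb, Nfkbia, Tnfaip3, Nfkbie, Traf1 and Birc3. There, Nfkb1 and Relb had overlapping counting intervals, as had Traf1 and Birc3. In the control the order was Tnfaip2, Nfkb2, Rela, Nfkbia, Nfkb1, Relb, Tnfaip3, Nfkbie, Birc3 and Traf1, with overlap between Tnfaip2 and Nfkb2 and between Birc3 and Traf1. Deposited lengths equalled the merged exons of all transcripts in GENCODE M21 for 8 of the 10 genes, all but Nfkb2 and Rela. For Nfkb1 the deposited length was 2.93 times that of the principal transcript, 12061 against 4117 bases. The factor was 2.57 for Traf1, 1.88 for Birc3 and 1.76 for Relb, and the lengths of Rela were equal.

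Levels were also taken per principal transcript, by dividing all reads of a gene by that length. Reads from outside the principal transcript were kept, so these levels are upper limits for it. On these lengths Nfkb1 was at 44.8 FPKM with Oct4 and SOX2, above Rela, and at 38.96 FPKM in the control. In the control the counting interval of Nfkb1 overlapped that of Rela. Its share of the summed subunit FPKM was then 22.6% with Oct4 and SOX2 and 22.05% in the control. Traf1 was at 2.89 FPKM with Oct4 and SOX2 and 1.47 FPKM in the control, a log2 ratio of 0.66 that passed 1.5-fold. Birc3 then reached 1.62 FPKM with Oct4 and SOX2 and 1.21 FPKM in the control. The level of Nfkb2 relative to Nfkb1 was 2.08 with Oct4 and SOX2 and 2.07 in the control on these lengths, and that of Rela relative to Relb 1.39 with Oct4 and SOX2 and 2.01 in the control. Nfkb2 made up 46.9% of the summed subunit FPKM with Oct4 and SOX2 and 45.6% in the control. Plain folds between the libraries are the same on either length.

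**Figure D4:**
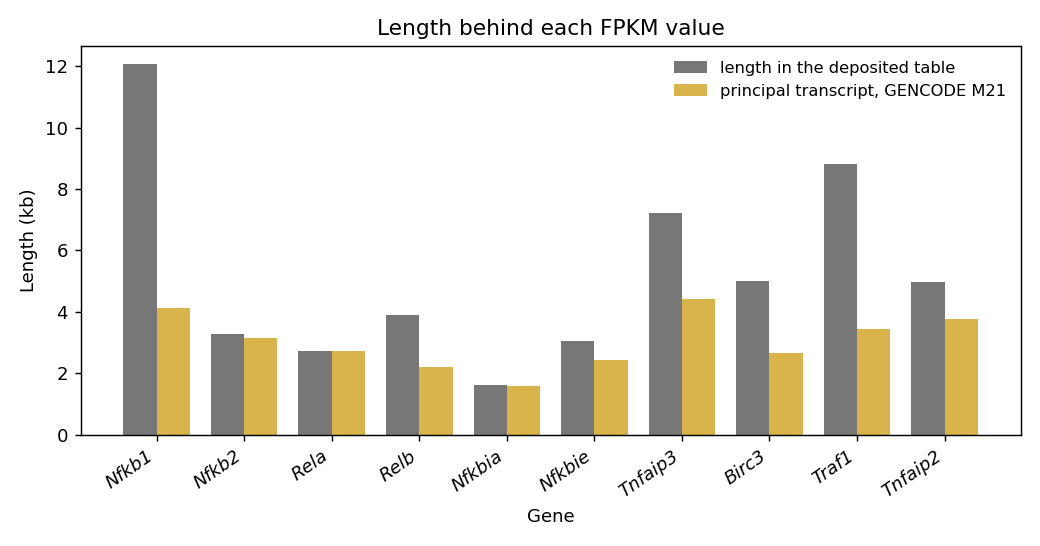
Length in kilobases of each NF-κB gene in the deposited table (grey) and of its principal transcript in GENCODE M21 (yellow). Nfkb1 and Traf1 have the widest gaps, at 2.93 and 2.57 times, and Rela has none.

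The rest of the pathway was looked up in lists of genes by role. Their counts stand against the 2.42% of all genes tested that were at least 2-fold higher and the 1.85% lower, and in lists this short 1 gene is already a larger share. Among 7 other Rel and IκB genes, all tested, 1 was at least 2-fold higher and 0 lower, and the median log2 ratio was -0.08. The member past 2-fold was Bcl3, whose product is a nuclear IκB protein that binds p50 and p52 dimers. It was at 3.17 FPKM with Oct4 and SOX2 and 0.696 FPKM in the control, from 250 and 55 reads, 4.55-fold higher (3.39 to 6.21). Bcl3 passed the filter on low values only through the library where it was higher. With a pseudocount of 5 FPKM it was within 2-fold. Nfkbib and Rel are named after their values were seen. Nfkbib, for IκBβ, was at 15.3 FPKM with Oct4 and SOX2 and 26.2 FPKM in the control, 1.71-fold lower (1.59 to 1.85), further from the control than Nfkbia or Nfkbie. Rel, for the subunit c-Rel, was at 7.33 FPKM with Oct4 and SOX2 and 5.87 FPKM in the control, 1.25-fold higher (1.16 to 1.34).

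Upstream, 12 of 13 tested kinase genes and partners and all tested adaptors lay within 1.5-fold on the FPKM + 1 scale. Map3k3 was the exception. Of all genes tested, 12.9% were at least 1.5-fold different either way, and of protein-coding genes tested 9.19%. The counts in these short lists lie below both shares, and whether they differ from them was not tested. Of 14 kinase genes and their partners, 13 were tested, none passed 2-fold on the FPKM + 1 scale, and the median was -0.01. Chuk, for the kinase subunit IKKα, was at 31.6 FPKM with Oct4 and SOX2 and 33.0 FPKM in the control. Tab2, an adaptor of the kinase TAK1, was at 31.9 FPKM with Oct4 and SOX2 and 32.4 FPKM in the control. Map3k3, for the kinase MEKK3 and named after its values were seen, came nearest to 2-fold with a log2 ratio of 0.99, at 41.02 FPKM with Oct4 and SOX2 and 20.2 FPKM in the control. As a plain ratio it was 2.03-fold higher (1.94 to 2.13). Of 24 adaptor and ligase genes, 21 were tested and all lay within 1.5-fold on the FPKM + 1 scale, with a median of 0.04. As a plain ratio Malt1, also named after its values were seen, was 1.53-fold higher (1.36 to 1.73). Rbck1, of the linear ubiquitin ligase, was at 36.1 FPKM with Oct4 and SOX2 and 38.1 FPKM in the control, and the kinase gene Irak1 was at 30.97 FPKM with Oct4 and SOX2 and 30.5 FPKM in the control.

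Ligands were nearly absent, and single receptors differed in both directions. Of 15 ligand genes 2 were tested, with a median of 0.42, and neither passed 2-fold. Tnfsf9, for the ligand 4-1BBL, was at 7.76 FPKM with Oct4 and SOX2 and 4.18 FPKM in the control, 1.86-fold higher (1.54 to 2.25). Tnfsf12, for TWEAK, was at 3.501 FPKM with Oct4 and SOX2 and 3.27 FPKM in the control. Tnf itself, also named after its values were seen, had 2 reads with Oct4 and SOX2 and 0 in the control. Of 19 receptor genes 9 were tested, 1 was at least 2-fold higher and 0 lower, with a median of -0.11. At 1.5-fold, 1 was higher and 1 lower, beside 6.58% and 6.34% of all genes tested. The receptor gene past 2-fold was Tnfrsf9, for 4-1BB, the receptor of that ligand and one that recruits TRAF1. Tnfrsf9 was at 21.8 FPKM with Oct4 and SOX2 and 9.91 FPKM in the control, 2.20-fold higher (2.03 to 2.39), and with a pseudocount of 5 FPKM it was within 2-fold. The lower receptor gene was Tlr3, named after its values were seen. Tlr3 was at 4.05 FPKM with Oct4 and SOX2 and 7.34 FPKM in the control, 1.81-fold lower (1.65 to 1.99).

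Apart from Usp18, the tested ubiquitin regulators lay within 1.5-fold, as did all but 12.9% of all genes tested. Further targets differed in both directions. Of 16 regulators 14 were tested, 0 were 2-fold higher and 1 was lower, with a median of -0.05. That gene was Usp18, which removes ISG15 and restrains interferon signalling, at 24.2 FPKM with Oct4 and SOX2 and 79.3 FPKM in the control, 3.28-fold lower (3.12 to 3.44). Of 39 further target genes 20 were tested, 3 were at least 2-fold higher and 3 lower, with a median of -0.14. The adhesion gene Vcam1 was at 78.9 FPKM with Oct4 and SOX2 and 11.5 FPKM in the control, 6.85-fold higher (6.61 to 7.11). Sele, for E-selectin, was 3.24-fold higher (3.04 to 3.46), and the cytokine gene Il6 was 6.90-fold higher (4.19 to 12.03), at 1.60 FPKM with Oct4 and SOX2 and 0.232 FPKM in the control. The chemokine gene Ccl5 was 3.75-fold lower (2.54 to 5.69), Cxcl10 was 3.05-fold lower (2.54 to 3.67), and the growth factor gene Csf1 was 2.07-fold lower (2.03 to 2.12). With a pseudocount of 5 FPKM, 2 of the 3 higher targets were past 2-fold, all but Il6, which had passed the filter only through its higher library. In the same setting 1 of the 3 lower targets was past 2-fold.

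**Figure D5:**
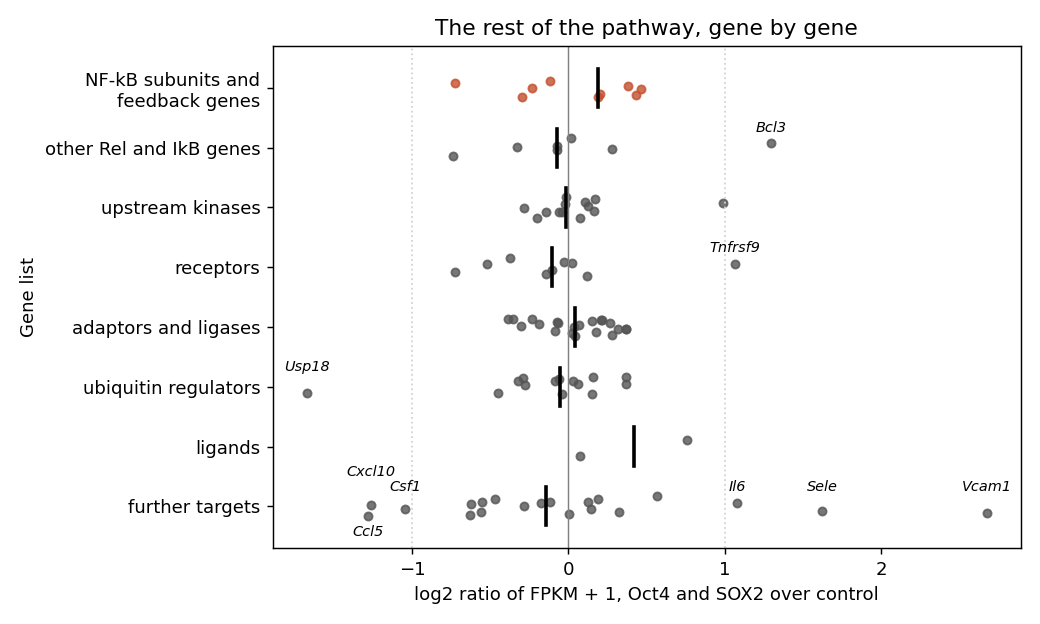
Oct4 and SOX2 over control, as log2 ratios of FPKM + 1 (x axis), for each tested gene (dots) of the NF-κB genes and 7 lists of other pathway genes, with the list median as a black bar. Dotted lines mark 2-fold and genes past it are named. The NF-κB genes lie within 2-fold, while the further targets run from Ccl5 at -1.28 to Vcam1 at 2.67.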

How the data were processed

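The authors deposited 1 table of FPKM values for 54532 genes in 2 libraries, with gene names, positions and lengths. CASAVA, HISAT2, featureCounts 1.5.0-p3 and the build GRCm38 are named per the submitters' processing notes. Per the labels' protocols, total RNA was taken with TRIzol and a NEBNext Ultra kit was used for the libraries. No annotation release, strand setting or FPKM formula was found, each being not given in the sources used here. FPKM multiplied by gene length gave whole reads for 100% of values within 0.001 of a read, so read numbers were recovered. The depth implied by FPKM was 1.01 times the recovered sum with Oct4 and SOX2 and 0.989 times in the control.

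With 1 library per group no test was possible. The log2 ratio used a pseudocount of 1 FPKM and genes with at least 1 FPKM in either library, which understates differences of low genes. Size rules were 1.5-fold and 2-fold. Plain folds have exact 95% conditional binomial intervals and levels exact Poisson ones. Intervals and the floor of 3 reads cover counting error only. Steps were tested on simulated data. Exon structure came from GENCODE M21, where 9 of the 10 genes had the deposited coordinates (not Nfkb2). Members and lists were chosen with earlier results of these data known. Named in the text were all members and, per list, genes past 2-fold or else the 2 most expressed. Other genes were named after their values were seen, markers and overlapping genes apart. No genes were named for a like pattern, since 2 libraries give each gene 1 difference. The work was done in Python 3.11.15 with pandas 2.3.3, scipy 1.17.1, numpy 2.4.6 and, for plots, matplotlib 3.10.9.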

Additional observations from a re-analysis of the deposited data

How the results depend on the processing

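With 1 library per group no replicate could be left out. No paired analysis was possible because each group holds 1 library. Counts over all genes tested depended on how low values were treated. With a pseudocount of 0.1 FPKM, 520 genes were at least 2-fold higher with Oct4 and SOX2 and 459 lower, and with 5 FPKM the counts were 75 and 56. At 1.5-fold, the pseudocount of 5 FPKM gave 278 higher and 282 lower. A filter of 5 FPKM gave 145 higher and 121 lower at 2-fold, and 439 and 454 at 1.5-fold. Protein-coding genes alone, 10276 of those tested, gave 143 and 110 at 2-fold, or 1.39% and 1.07%. At 1.5-fold they gave 484 and 460, or 4.71% and 4.48%. These shares are lower than those over all genes tested. In the main setting the counts were 300 and 230 at 2-fold, and 816 and 786 at 1.5-fold.

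The NF-κB genes kept their direction under each alternative that gave a value, but this is no check of direction. A pseudocount, a filter or a gene length cannot change the sign of a ratio. Centring and rescaling shift all genes by about the same small amount. Rela, the smallest difference of the members tested, ranged only from -0.12 to -0.085. The median of the members was 0.035 with a filter of 5 FPKM, which leaves out Traf1. The number at least 1.5-fold higher, 0 in the main setting, was 1, Traf1, with a pseudocount of 0.1 FPKM and with principal transcript lengths, an alternative chosen after seeing the data. Traf1 ranged in log2 ratio from 0.14 to 0.87, Nfkbie from 0.28 to 0.55 and Tnfaip2 from -0.74 to -0.68. Map3k3 passed 2-fold after centring on the median, with plain read totals, after rescaling without the 50 highest genes and with a pseudocount of 0.1 FPKM, and Bcl3 and Tnfrsf9 were within 2-fold with a pseudocount of 5 FPKM.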
